A study of Mus musculus with 6 samples.

Results

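The interferon-induced GTPases of the guanylate-binding protein (GBP) and immunity-related GTPase (IRG) families were examined in cultured mouse lymphatic endothelial cells (LEC). The list held 9 genes, Gbp2, Gbp3, Gbp4, Gbp6, Igtp, Irgm1, Irgm2, Iigp1 and Tgtp1. A gene was measured where a probe set of the array is annotated to it alone, and its value was that of its brightest probe set over the 6 arrays. By this rule 7 of the 9 genes were measured, through 10 probe sets, out of 18193 genes with such a probe set. Gbp4 and Tgtp1 are each annotated only on a probe set that lists a second gene, and no value is given for them. All 7 measured genes were among the 12954 genes left after a filter on low values.

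The source of tumour LEC was T241/VEGF-C/GFP fibrosarcomas grown in C57BL/6 mice, that is, tumours of a mouse fibrosarcoma line carrying the lymphatic growth factor VEGF-C and the fluorescent marker GFP. The normal dermal LEC were taken from the tail skin of C57BL/6 females, aged 8 weeks; the age and sex of the tumour-bearing mice are not given in the labels. Both kinds of cell were grown on gelatin in an endothelial medium, so every value describes cells after culture, and the protocol ends with selection by antibodies to LYVE-1, a hyaluronan receptor of lymphatic endothelium. The wording of the protocol leaves the last steps for the tumour cells unclear. Each group had 3 Affymetrix arrays, with 50 ng of total RNA labelled per array. Titles of tumour arrays name tumour cells, while their source text names LEC isolated from tumours, which is followed here. No label says that replicates were separate cultures or animals. A p-value therefore reflects array-to-array spread alone, and that spread may be technical.

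GBP and IRG proteins are the main arms of cell-autonomous immunity that interferon switches on in mouse cells. They gather on the membrane of vacuoles that hold intracellular parasites or bacteria and help to break them open, with GBPs also feeding the noncanonical inflammasome. Among the IRG proteins, the regulatory IRGM group (Irgm1, Irgm2 and Igtp, also called Irgm3) sits on the cell's own membranes and keeps the effector group, to which Iigp1 and Tgtp1 belong, inactive there. Interferon-gamma acts on such genes through STAT dimers at GAS elements, and type I interferon and IRF proteins act through ISRE elements.

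The promoter stretches of the family are shown as background, and a link between their motifs and the values on the arrays was not tested. RefSeq (GRCm38.p6) held promoter windows, from 250 bases before to 50 bases after a transcript start, for 6 of the 9 genes. These were Gbp2, Gbp3, Igtp, Irgm1, Irgm2 and Tgtp1. Windows were searched on both strands for an ISRE-like motif, which is GAAA, any 2 bases and GAAA again, and for the GAS motif, TTCNNNGAA, which reads the same on both strands. The stretches below end before the transcript start and are written along the gene's strand, with matches to either motif in capitals. An ISRE-like match on the opposite strand appears as TTTC, any 2 bases and TTTC.
Gbp2: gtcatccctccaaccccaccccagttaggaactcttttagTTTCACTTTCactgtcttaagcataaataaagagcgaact
Gbp3: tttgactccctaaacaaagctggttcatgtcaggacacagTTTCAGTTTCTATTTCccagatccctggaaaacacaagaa
Irgm1: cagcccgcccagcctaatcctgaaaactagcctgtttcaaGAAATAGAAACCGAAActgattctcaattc
Irgm2: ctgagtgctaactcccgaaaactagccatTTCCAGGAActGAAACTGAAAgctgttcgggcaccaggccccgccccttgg
Igtp: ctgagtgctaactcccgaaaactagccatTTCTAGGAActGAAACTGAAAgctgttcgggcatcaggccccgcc
Gbp7: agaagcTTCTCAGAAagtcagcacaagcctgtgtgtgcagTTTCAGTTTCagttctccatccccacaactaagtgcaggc
Gbp2b: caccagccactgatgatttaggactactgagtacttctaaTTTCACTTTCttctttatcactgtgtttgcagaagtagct

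The stretches lie at chr3:142620564-142620643 for Gbp2 and chr3:142559959-142560038 for Gbp3, both on the plus strand. The IRGM stretches lie at chr11:48871421-48871490 on the minus strand for Irgm1, and on the plus strand at chr11:58214873-58214952 for Irgm2 and chr11:58199482-58199555 for Igtp. Those of Gbp7 and Gbp2b, which are relatives outside the list and neighbours of Gbp2 and Gbp3, lie on the plus strand at chr3:142530243-142530322 and chr3:142594670-142594749. An ISRE-like match was present for 6 of the 6 genes of the list with a window, against 3.99% of the 27025 genes with one. Gbp3 has windows at 2 starts, and only the first held a match. Of these genes 3 also held a GAS match (Igtp, Irgm2 and Tgtp1), against 9.55% of all genes. In Igtp and Irgm2, which are neighbours on chromosome 11, the printed stretches share 72 of 74 bases, so their promoters are not independent examples. Tgtp1 has the same letters as Irgm2 at both matches, 88 and 77 bases before its start, against 75 and 64 in Irgm2. The 3 genes with a GAS match may therefore not be independent examples. The 2 ISRE-like matches of Gbp3 overlap each other, as do those of Irgm1. A match describes the letters of the window and is not evidence of a bound site.

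All 7 measured GBP and IRG genes averaged higher in tumour LEC than in normal LEC, by 1.20 to 2.09 log2 units, and none passed the test. A positive difference was seen for 53.1% of all genes tested and for 46.8% of those above background on at least 1 array. The median difference was 1.74 log2 units, or 3.34-fold, against a median of 0.03 over all genes tested. A difference above 1 was seen for 7 of the 7 genes and for 3.84% of all genes tested. With limma and a Benjamini-Hochberg adjusted p under 0.05, 0 of the 7 genes passed, and 28 of the 12954 genes tested did (0.216%), with 0.0463% higher and 0.17% lower in tumour LEC. Without adjustment 4 of the 7 had a p under 0.05 and were higher, against 6.66% of all genes, and 0 were lower, against 8.83%. The arrays of the 2 groups did not overlap, with tumour LEC higher, for 4 of the 7 genes, against 20.9% of all genes and 13.8% of those above background on at least 1 array. They did not overlap in the other direction for 0 of the 7, against 11.6% of all genes. The genes were chosen with earlier results of these data known, so these counts describe the list and are not independent evidence about it.

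**Figure D1:**
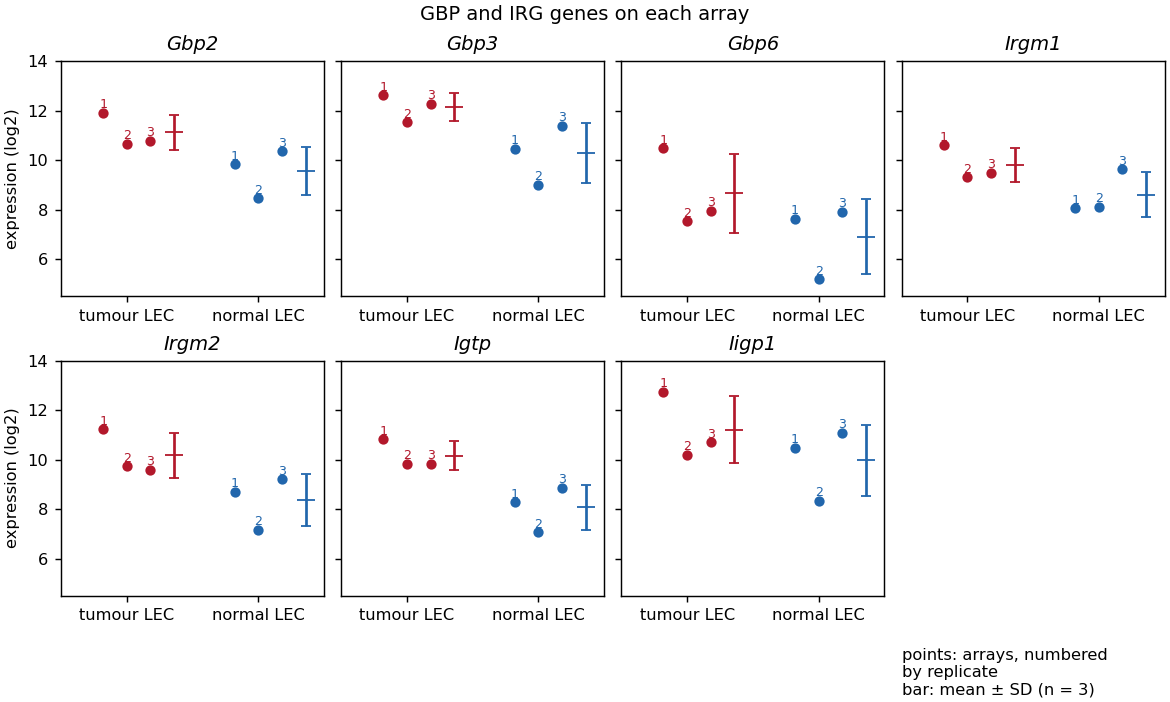
Expression (log2, vertical axis) of the 7 measured GBP and IRG genes on each array, with tumour LEC in red and normal LEC in blue, points numbered by replicate, and the mean ± SD (n = 3) beside each group. Tumour replicate 1 was the highest array for 7 of the 7 genes and normal replicate 2 the lowest for 6 of them.

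Igtp, a regulatory IRG protein, had the widest separation of the groups. It read 10.83, 9.83 and 9.83 log2 units in tumour LEC replicates 1, 2 and 3, and 8.28, 7.07 and 8.86 in normal LEC replicates 1, 2 and 3. All tumour arrays lay above all normal arrays, with a gap of 0.97 between the nearest. The difference was 2.09 (SE 0.53, 95% confidence interval 0.76 to 3.42, limma adjusted p = 0.186), or 4.26-fold.

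Irgm2, the second of the regulatory IRG genes, read 11.22, 9.73 and 9.58 in tumour LEC and 8.71, 7.17 and 9.20 in normal LEC. The groups did not overlap, but the nearest arrays were 0.38 apart, less than the SD within either group (0.91 in tumour LEC and 1.06 in normal LEC, n = 3 each). It was higher by 1.82 (SE 0.69, limma adjusted p = 0.299). Irgm1, which is required in mice for resistance to several intracellular bacteria, read 10.60, 9.30 and 9.50 in tumour LEC and 8.06, 8.12 and 9.64 in normal LEC. Normal replicate 3 lay above tumour replicates 2 and 3, so the groups overlapped. Irgm1 had the smallest difference of the 7, at 1.20 (SE 0.56, interval -0.20 to 2.60, limma adjusted p = 0.377), and was the only one of the 7 whose lowest array was normal replicate 1.

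Iigp1, also known as Irga6 and the best studied effector IRG, read 12.74, 10.19 and 10.70 in tumour LEC and 10.47, 8.35 and 11.08 in normal LEC. The ranges overlapped widely, and normal replicate 3 exceeded tumour replicates 2 and 3. Its difference of 1.25 (SE 0.96, interval -1.15 to 3.65) had the largest adjusted p of the 7 genes (limma, 0.540). The fainter probe set of Iigp1 gave 1.48, with the same highest and lowest array.

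Gbp3 and Gbp2 belong to the GBP cluster on chromosome 3. Gbp3 read 12.62, 11.53 and 12.28 in tumour LEC and 10.45, 9.01 and 11.39 in normal LEC. The groups did not overlap, by 0.14 only, and normal LEC spread over 2.38 log2 units. Gbp3 was higher by 1.86 (SE 0.65, limma adjusted p = 0.278).

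Gbp2, a lipid-anchored GBP that acts against Toxoplasma in mice, read 11.92, 10.65 and 10.79 in tumour LEC and 9.84, 8.46 and 10.36 in normal LEC. The groups did not overlap, with a gap of 0.30, and the difference was 1.57 (SE 0.59, limma adjusted p = 0.299). Its brightest probe set carries the suffix that Affymetrix gives to sets with probes similar to other sequences, and the GBP genes are close relatives. The other probe set of Gbp2, without that suffix, gave 1.90 and also separated the groups.

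Gbp6 belongs to the other GBP cluster, on chromosome 5. It read 10.48, 7.53 and 7.95 in tumour LEC and 7.63, 5.19 and 7.91 in normal LEC. A single array stood high and another low, and the other 4 lay between 7.53 and 7.95 in both groups. The difference of 1.74 (SE 1.07, interval -0.92 to 4.41, limma adjusted p = 0.474) therefore came with the widest spread in tumour LEC of the 7 genes (SD 1.60, n = 3). The fainter probe set gave 2.02, at 8.48, 6.19 and 6.31 in tumour LEC and 5.21, 3.53 and 6.18 in normal LEC. There the groups did not overlap, though normal replicate 3 lay only just below tumour replicate 2.

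**Figure D2:**
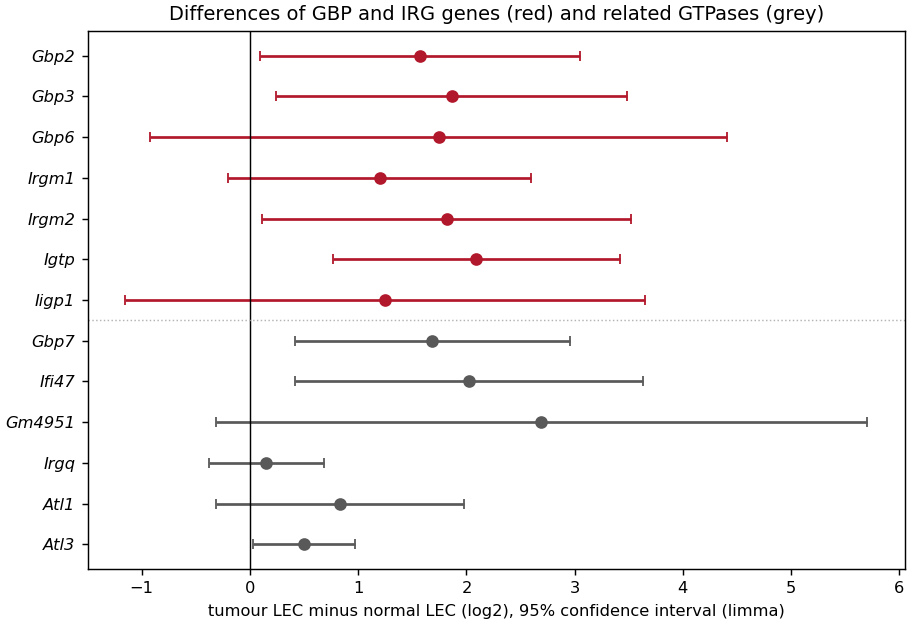
Difference of tumour LEC minus normal LEC (log2, horizontal axis) with its 95% confidence interval from limma for the 7 measured genes (red) and for 6 related GTPases read above background on all arrays (grey). The intervals of Igtp, Gbp2, Gbp3 and Irgm2 lie above 0 without adjustment for the number of genes, and those of Irgm1, Gbp6 and Iigp1 include it.

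The 7 genes shared a pattern across single arrays within the groups. Tumour replicate 1 was highest for 7 of the 7, against 20.3% of all genes tested, and normal replicate 2 was lowest for 6 of the 7, against 13.9%. Both held for 6 of the 7 and for 5.99% of all genes. Measured from each gene's mean, the median deviation of the 7 was 1.71, 0.32 and 0.31 log2 units in tumour replicates 1, 2 and 3, and -0.56, -2.10 and 0.13 in normal replicates 1, 2 and 3. Arrays were also compared gene by gene, with the median taken over the 7 differences. Tumour replicates 2 and 3 exceeded normal replicate 3 by a median of only 0.14 and 0.38. By the same measure tumour replicate 1 exceeded tumour replicate 2 by 1.30, and normal replicate 3 exceeded normal replicate 2 by 2.03. The median SD within a group was 0.70 in tumour LEC and 1.06 in normal LEC over the 7 genes, against 0.26 and 0.20 over all genes tested.

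**Figure D3:**
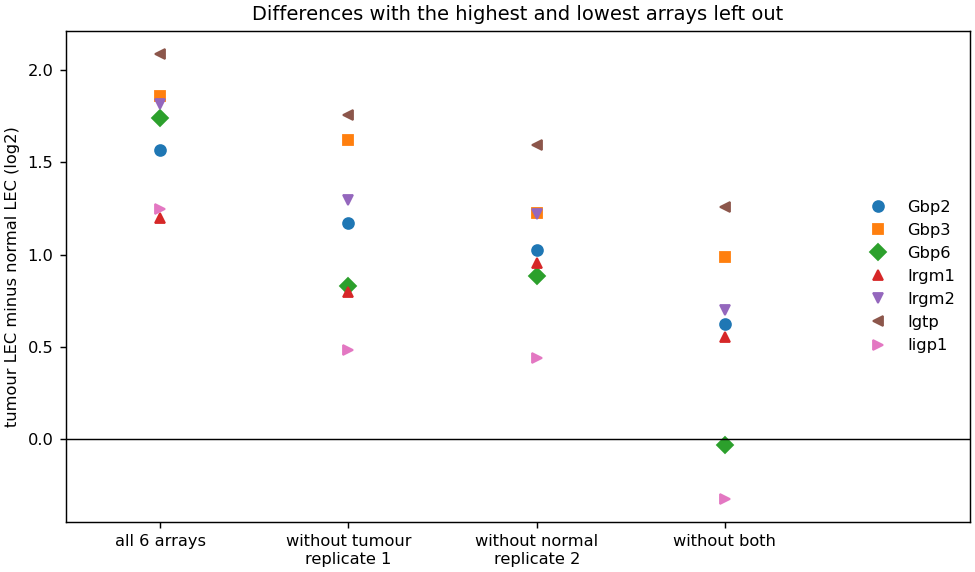
Difference of tumour LEC minus normal LEC (log2, vertical axis) of each of the 7 genes with all 6 arrays, without tumour replicate 1, without normal replicate 2, and without both. With both left out the differences ran from -0.33 for Iigp1 to 1.26 for Igtp.

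The differences were also computed without these 2 arrays, which were chosen after the data were seen because they were the extremes of these genes. Leaving out a group's extreme array lowers such differences by construction, so only the sizes that remain are described. Without tumour replicate 1 the 7 differences ran from 0.48 (Iigp1) to 1.76 (Igtp). Without normal replicate 2 they ran from 0.44 (Iigp1) to 1.59 (Igtp), and the median was 1.02 in place of 1.74. Without both, Iigp1 was at -0.33 and Gbp6 at -0.03, so neither kept its direction at its brightest probe set. At their fainter probe sets both genes stayed higher on average in tumour LEC. There Iigp1 read 9.56 and 9.99 in tumour replicates 2 and 3, and 9.08 and 9.87 in normal replicates 1 and 3. Gbp6 read 6.19 and 6.31 there, against 5.21 and 6.18. Igtp at 1.26, Gbp3 at 0.99, Irgm2 at 0.70, Gbp2 at 0.62 and Irgm1 at 0.55 stayed higher in tumour LEC, with limma adjusted p from 0.259 to 0.643 for these 5.

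Relatives of the 7 genes were read from a list of 22 further GBP, IRG and similar large GTPases, of which 11 were measured and 8 tested. None passed limma's test in either direction. Of the 8, 3 had an unadjusted p under 0.05, all higher, against 6.66% of all genes tested. Groups did not overlap for 6 of the 8, all higher, against 20.9% of all genes. These 6 include Mx1, at background on all arrays, and Gbp8, above it on 1 array only. Gbp7, of the chromosome 3 cluster, read 11.46, 10.56 and 11.10 in tumour LEC and 9.37, 8.42 and 10.27 in normal LEC, higher by 1.69 (SE 0.51, limma adjusted p = 0.230). Its fainter probe set gave 0.89, and there the groups overlapped. Ifi47 or Irgd, an effector IRG, read 11.01, 9.69 and 8.66 in tumour LEC and 7.78, 7.19 and 8.34 in normal LEC, higher by 2.02 (SE 0.65). Its RefSeq window held no ISRE-like match. Gm4951 differed most, by 2.69, with an SE of 1.21.

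Gbp2b, which lies between Gbp3 and Gbp2 and carries the ISRE-like match shown above, was at background on all 6 arrays. A reading counts as background at or below the highest of the array's 27 bacterial control probe sets, which have no target in mouse RNA; that limit was 3.40 to 3.71. Gbp8, of the chromosome 5 cluster, was above it on 1 array only, tumour replicate 1 (4.05). Mx1 and Mx2, antiviral GTPases of another family, and Irgc1 were at background on all arrays. Irgq, a divergent IRG, differed by 0.15 (SE 0.21). The atlastins Atl1 and Atl3, GTPases that fuse endoplasmic reticulum membranes and resemble GBPs in structure, differed by 0.83 (SE 0.46) and 0.50 (SE 0.19). These 3 were read above background on all arrays, and whether their differences are smaller than those of the 7 genes was not tested.

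Transcripts of the interferons examined were at background, and other interferon genes were not on the lists. Ifng, whose product strongly induces GBP and IRG genes, was at background on all 6 arrays. It read 2.45 to 2.66 in tumour LEC and 2.42 to 2.44 in normal LEC. The type I interferon genes Ifna1, Ifna2, Ifna4 and Ifnb1 were also at background on all 6 arrays. The receptor chain Ifngr1 read 8.94, 9.31 and 9.57 in tumour LEC and 8.71, 8.45 and 8.66 in normal LEC, higher by 0.67 (SE 0.19, limma adjusted p = 0.220) without overlap. Ifngr2 differed by -0.37 (SE 0.41), its lowest array being tumour replicate 3 at 5.81. Irf1, the interferon-gamma-induced transcription factor that acts at ISRE elements, differed by 0.27 (SE 0.25), and its groups overlapped.

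Of 31 entries for interferon ligands, receptors and signalling, 29 were measured and 21 tested. None passed limma's test, and 5 had an unadjusted p under 0.05, all higher, against 6.66% of all genes tested. Groups did not overlap for 9 of the 21, all higher in tumour LEC, against 20.9% of all genes tested. The 9 include Tyk2 and Ptpn6, whose nearest tumour and normal arrays were almost equal (6.733 against 6.728, and 4.260 against 4.250). Usp18, a brake on type I interferon receptor signalling, differed by 2.22 (SE 0.70), Irf7, the amplifier of type I interferon, by 2.19 (SE 0.84), and Irf8 by 2.07 (SE 0.91). For Irf8 normal replicate 1 read 3.47, just above background, and the other normal arrays 6.74 and 6.63, against 7.60 to 7.83 in tumour LEC. Irf7, like the GTPases, was highest on tumour replicate 1 and lowest on normal replicate 2, at 10.14, 7.83 and 8.51 in tumour LEC and 6.89, 5.28 and 7.74 in normal LEC.

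Other interferon-gamma-induced genes were higher in tumour LEC for 23 of the 24 tested, against 53.1% of all genes, with a median of 0.79. Their groups did not overlap for 16, all higher, against 20.9% of all genes and 13.8% of those above background on at least 1 array. Of these 16, Batf2 was at background on all arrays, and Cxcl9 and Cd74 were above it only on 1 and 2 tumour arrays. Of the 24, 13 were highest on tumour replicate 1 and 14 lowest on normal replicate 2, against 20.3% and 13.9% of all genes. None passed limma's test, and 12 had an unadjusted p under 0.05, all higher, against 6.66% of all genes. Nlrc5, the activator of MHC class I genes, read 7.71, 7.73 and 8.52 in tumour LEC and 5.32, 2.89 and 5.15 in normal LEC, where replicate 2 was at background. The immunoproteasome subunits Psmb8 and Psmb9 differed by 3.42 (SE 0.78) and 3.23 (SE 0.46). Psmb9 read 9.42, 8.96 and 8.94 in tumour LEC and 6.67, 4.91 and 6.05 in normal LEC, with every tumour array above every normal array.

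The type I interferon antiviral list had 30 of 31 tested genes higher in tumour LEC, against 53.1% of all genes, with a median of 1.22. Groups did not overlap for 18 of them, all higher, against 20.9% of all genes. One of these 18, Ifi44l, was at background on all arrays. None passed limma's test, and 15 had an unadjusted p under 0.05, all higher, against 6.66% of all genes. Oas1a, which makes the activator of RNase L, differed by 4.44 (SE 0.77, limma adjusted p = 0.0957), Oasl2 by 3.11 (SE 1.03) and Trim30a by 3.04 (SE 0.97). Tumour replicate 1 was the highest array for 27 of the 31 and normal replicate 2 the lowest for 24, against 20.3% and 13.9% of all genes. With both arrays left out, the median of this list was 0.46, and that of the interferon-gamma-induced genes was 0.63. An ISRE-like match was present for 12 of 26 genes of the antiviral list with a RefSeq window and for 4 of 18 interferon-gamma-induced genes. Over all genes the share was 3.99%. A GAS match was present for 9 of the 26 and for 2 of the 18, against 9.55% of all genes.

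**Figure D4:**
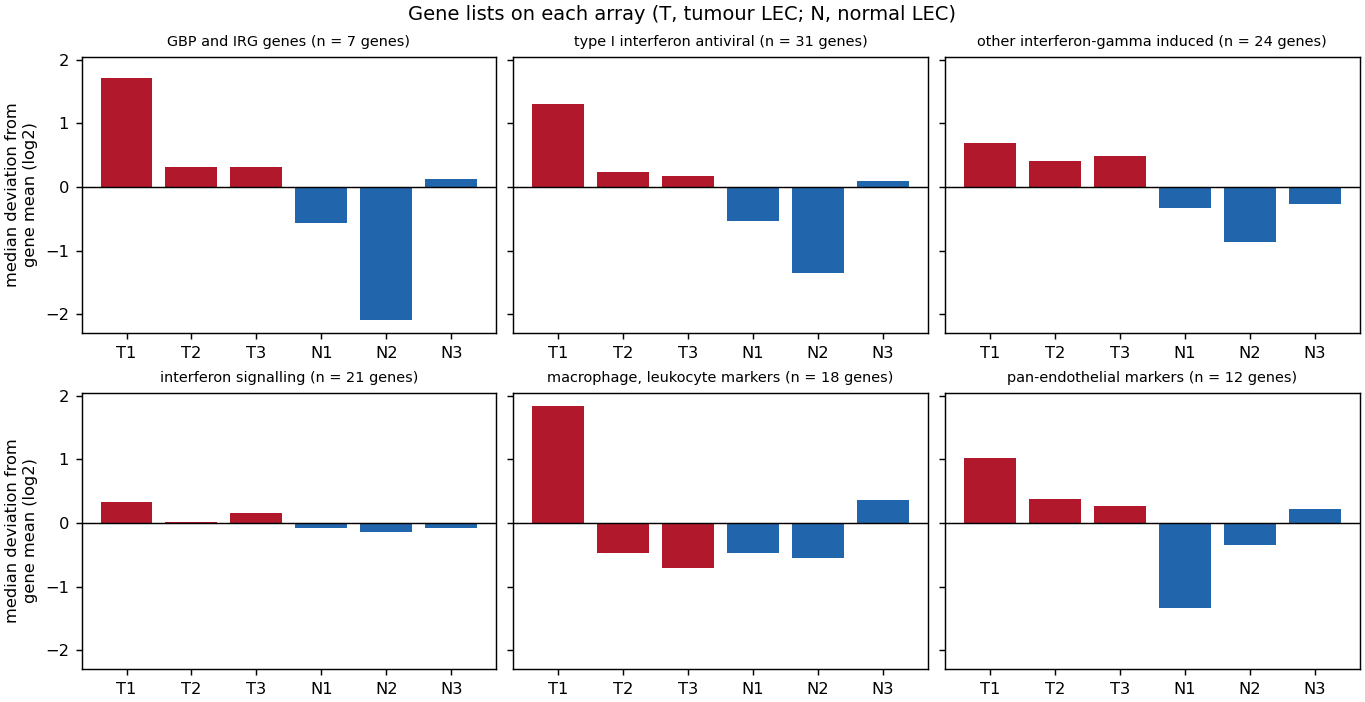
Median deviation from each gene's mean (log2, vertical axis) on each array for 6 gene lists, with tumour LEC in red (T1 to T3) and normal LEC in blue (N1 to N3). For the GBP and IRG genes and the antiviral, interferon-gamma-induced and signalling lists, tumour replicate 1 is highest and normal replicate 2 lowest. The macrophage and leukocyte markers are high on tumour replicate 1 only among the tumour arrays.

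Markers of other cells moved with part of this pattern. Of 18 macrophage and leukocyte markers tested, 14 were highest on tumour replicate 1, and their median deviation was 1.85, -0.47 and -0.71 in tumour LEC and -0.48, -0.56 and 0.36 in normal LEC. Summed over the 21 measured markers, the log2 values came to 146.69, 106.29 and 95.96 in tumour LEC and 104.38, 101.83 and 124.12 in normal LEC. Ptprc (CD45), carried by leukocytes, was above background on tumour replicate 1 alone, at 5.92. By group means 13 of the 18 were higher in tumour LEC, against 53.1% of all genes tested, with a median of 0.47. None passed limma's test. Cd68, a macrophage lysosomal protein, averaged lower in tumour LEC, unlike most of the list. It read 10.88, 7.90 and 4.82 in tumour LEC and 8.56, 8.45 and 9.57 in normal LEC. Itgam, Spi1, Fcgr1, Aif1 and Cx3cr1 were at background on all arrays. The part of these cells in the high GTPase values of tumour replicate 1 was not tested, and in such bulk samples fewer cells of a type and less RNA per cell cannot be told apart. Normal replicate 2 was the lowest of the normal arrays in this list too, by a small margin over normal replicate 1, and it was the lowest of all arrays for 6 of the 18 markers.

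T, NK and B cell markers, which mark the usual sources of interferon-gamma and B cells, were at background on every array for 11 of the 13 measured. The exceptions were Cd4, above background on all arrays at 3.55 to 4.29, and Ms4a1, above it on 2. Of the 12 fibroblast markers, 11 averaged lower in tumour LEC, and for 10 of them the groups did not overlap, against 11.6% of all genes tested. The median over the list was -3.88 log2 units. Without adjustment 8 had a p under 0.05 and were lower, against 8.83% of all genes, and 1 was higher, against 6.66%. Col1a2, a chain of type I collagen, was the only one of the list to pass limma's test, at 3.61, 3.16 and 2.76 in tumour LEC and 14.29, 11.69 and 11.70 in normal LEC. Thy1 was the only one that averaged higher in tumour LEC, by 0.67. Pdgfra read 5.74, 4.87 and 4.66 in tumour LEC and 11.75, 9.48 and 9.13 in normal LEC. The fibroblast list was highest on normal replicate 1 (median deviation 4.16, against 0.96 and 0.98 on the other normal arrays), an array that was lowest for 1 of the 7 GTPases. The part of fibroblasts in the normal values was not tested.

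Of 7 lymphatic endothelial markers measured, 6 were above background on all arrays of both groups (Lyve1, Prox1, Pdpn, Flt4, Reln and Foxc2), and Mmrn1 was at background on all. Normal LEC also carried the fibroblast transcripts given above. Foxc2, a transcription factor of lymphatic valves, was lower in tumour LEC by a difference of -1.74 (SE 0.36, limma adjusted p = 0.126), without overlap. Lyve1 read 14.11 to 14.91 in tumour LEC and 13.65 to 14.32 in normal LEC, and Prox1 7.77 to 8.92 in tumour LEC and 7.73 to 8.30 in normal LEC. Pecam1 and Cdh5, general endothelial genes, were above background on all arrays and differed by 1.44 (SE 0.69) and 1.01 (SE 0.45). Of the 12 general endothelial markers 10 averaged higher in tumour LEC, with a median of 0.96, and none passed limma's test. Groups did not overlap for 4, all higher, against 20.9% of all genes. Without adjustment 2 had a p under 0.05, both higher, against 6.66%. Among the 12, Esam differed by 2.08 (SE 0.51) and Eng by 1.70 (SE 0.38), the largest of the list and both without overlap. Tie1 differed by 0.02 and Kdr by -0.10, and Vwf was at background on all arrays. Their median deviation was lowest on normal replicate 1 (-1.34). Array medians were 2.99 to 3.02 on 5 arrays and 3.15 in tumour replicate 3.

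The genes whose array pattern was most like that of the GTPases were found by distance. For each tested gene outside the list, deviations from its own mean on the 6 arrays were compared with the median deviation of the 7 genes, as a root mean square distance. The closest was Rtp4, a chaperone of membrane receptors, at 0.17 log2 units. It read 11.77, 10.76 and 10.77 in tumour LEC and 10.03, 8.19 and 10.62 in normal LEC. Trim12a followed at 0.18, Trim34a at 0.26, the RNA sensor gene Dhx58 at 0.30 and Prom1, which encodes the surface protein prominin, at 0.31. Trim14 stood at 0.31, Trim12c at 0.32 and Phf11d at 0.33. The 7 genes themselves lay between 0.13 (Gbp2) and 0.54 (Gbp6) from their median, to which each contributes. The distance says nothing of tumour against normal beyond the 6 values it is made from.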

How the data were processed

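The deposited table gives log2 expression for 45101 probe sets on 6 arrays. Per the submitters' processing notes, the authors used RMA and GCRMA, without versions; which of them made the values, and the genome build, are not given in the sources used here. GCRMA draws dim signals towards a floor. Probe sets were named through GEO's old platform annotation, updated by Entrez identifier against RefSeq (0 symbols changed); 34945 had 1 gene. Those with a mean above the 40th percentile (2.71) were kept, the brightest per gene (12954 genes). Groups were compared with limma 3.58.1 in R 4.3.3 (lmFit, eBayes), two-sided, with Benjamini-Hochberg adjustment over all genes. With 3 arrays against 3 an exact permutation test cannot go below 0.1, and none was run. The number of arrays limits the precision. No 2 arrays were duplicates: at most 2.02% of probe sets read identically on a pair. The members, lists and tests were chosen with earlier results of these data known. All members and measured relatives are named. From each pathway list up to 3 genes with separated groups, above background in a group, and the largest differences are named, with Ifng, its receptor chains, Irf1 and fixed markers, and the 8 genes most alike in pattern. Of 223 other list entries, 200 were measured and the rest not analysed here. The alternatives were other filters, normalizations, variance models and probe set choices, array weights, a replicate block and left-out arrays. The fit was tested on simulated data.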

Additional observations from a re-analysis of the deposited data

How the results depend on the processing

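In all 16 alternatives 0 of the 7 GBP and IRG genes passed limma's adjusted p of 0.05, and 110 of 112 differences were positive, the exceptions being Gbp6 and Iigp1 with tumour replicate 1 and normal replicate 2 both left out. The lowest adjusted p was 0.114, for Igtp. The median difference of the 7 ranged from 1.02 to 2.24 with single arrays left out; it was 1.15 with array weights and 0.62 with both arrays left out. Leaving out arrays cannot make separated groups overlap, so counts of separated genes are not compared there. The number of genes called among all tested was far less stable: 28 as reported, 4 to 82 with single arrays left out, 10 with no filter on low values, 97 with a 60th percentile filter, 385 with array weights and 6 with both arrays left out; the cause was not tested. Same-numbered arrays deviated from their group means with correlations across genes of 0.19, 0.33 and -0.00. Tumour replicates 1 and 2 correlated best with the normal array of the same number, and tumour replicate 3 with normal replicate 2. Deviations from a group's own mean are tied to each other, so these values cannot settle whether the arrays were paired. With a replicate block 46 genes were called, none of the 7 among them.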

Other observations

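Genes whose products act with GBP and IRG proteins were read from a list of autophagy conjugation, vacuole recognition, prenylation and inflammasome genes. Of 30 entries 29 were measured and 28 tested, with a median difference of 0.21. None passed limma's test. Without adjustment 7 had a p under 0.05 with higher values in tumour LEC and 1 with a lower value. Over all genes tested these shares were 6.66% and 8.83%. All tumour arrays lay above all normal arrays for 10 genes and below them for 1, against 20.9% and 11.6% of all genes tested. Casp1, the inflammasome caspase, read 6.87, 6.08 and 5.55 in tumour LEC and 5.24, 3.63 and 4.47 in normal LEC, higher by 1.72 (SE 0.52, limma adjusted p = 0.229). Lgals9, a galectin, differed by 1.11 (SE 0.38), and Ube2l6, the conjugating enzyme for ISG15, by 0.86 (SE 0.28), with 2 normal arrays at background.

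Of the prenyltransferase subunits in this list, which serve to lipid-anchor proteins such as Gbp2, Pggt1b of the geranylgeranyl enzyme differed by 0.77 (SE 0.17), Fntb of the farnesyl enzyme by -0.59 (SE 0.14) and Fnta, the subunit that both enzymes share, by -0.36 (SE 0.20). None of these passed limma's test, with adjusted p of 0.147, 0.169 and 0.439. Among the autophagy conjugation genes, on which the placing of IRG and GBP proteins depends, Atg12 differed by 0.59 (SE 0.22, limma adjusted p = 0.295) and Gabarapl2 by 0.44 (SE 0.19), both without overlap of the groups. Atg5 differed by 0.19, also without overlap. Atg3, Atg7, Atg16l1, Map1lc3a, Map1lc3b, Gabarap and Gabarapl1 differed by -0.08 to 0.32, and their groups overlapped.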
